A study of Mus musculus with 28 samples.

Results

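Ribosome-bound mRNA of astrocytes was compared between cKO and Ctrl mice in the cerebral cortex at P24. The comparison rests on the IP libraries of a TRAP-Seq experiment, 3 from cKO and 3 from Ctrl mice, out of 28 libraries in the series, and on every gene of the count table in both directions. The table lists 53342 genes, of which 23864 passed the filter on low counts and were tested. cKO mice carried loxP/loxP alleles of a target gene that is not reported here and the mGFAP-Cre driver, in which a mouse GFAP promoter drives Cre recombinase. Ctrl mice were sex-matched littermates that the study gives as f/f or f/+. In the TRAP mice of both genotypes the EGFP/Rpl10a tag was turned on by Cre, so that tagged ribosomes in Ctrl mice imply the driver there as well. Which loxP genotype the Ctrl TRAP mice had is not stated, and a loss of a single copy of the target gene in Ctrl astrocytes was not tested. Both cortices of 1 mouse gave 1 IP and 1 Input library. Input is the cortical lysate before the pull-down and is used here only to show where the IP fraction differs from it. The question of the experiment was whether the altered metabolic transcripts of the cKO cortex belong to astrocytes themselves.

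In TRAP, a ribosomal protein fused to EGFP is expressed in a chosen cell type, and antibodies against EGFP pull down its ribosomes with the mRNA they carry. In astrocytes the sodium gradient across the membrane drives the uptake of glutamate and GABA, the exchange of calcium and protons, and the clearance of potassium after neuronal firing. Mature astrocytes are known for these homeostatic tasks, for glycogen storage and for the supply of serine, lactate and lipids to neurons, and injured or stressed astrocytes turn on intermediate filaments and other reactive genes. In IP libraries, fewer tagged cells of a kind and less mRNA on each cell's ribosomes cannot be told apart.

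Each IP library held between 23336491 and 26153084 counts on genes, and a floor of 3 counts stood for 0.115 to 0.129 CPM. CPM is the count relative to the TMM-scaled library size of its fraction. Reads carried no molecular tags, so that the floor covers counting error only. The 3 Ctrl and 3 cKO libraries of a group differed by more than counting noise, and p-values measure the spread between these mice. A gene is called downregulated or upregulated in cKO mice when its adjusted p by edgeR's two-sided quasi-likelihood test was under 0.05, with the Benjamini–Hochberg adjustment made across the 23864 genes.

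Among the IP libraries, cKO replicate 2 stood apart from the rest of its group, as did Ctrl replicate 3 for upregulated genes. cKO replicate 2 was the highest of the 3 cKO libraries for 1897 of the 2772 upregulated genes, and the lowest for 1131 of the 2010 downregulated genes. The groups of genes described below differed in this. Of their downregulated genes, cKO replicate 1 was the lowest for 4 of 5 in glutamate and GABA clearance and for 5 of 5 transmitter receptors. cKO replicate 2 was the lowest for 6 of 8 astrocyte transcription factors and for 4 of 7 genes of Hedgehog and Notch signalling. Ctrl replicate 3 was the lowest of the 3 Ctrl libraries for 1686 of the upregulated genes. For downregulated genes it was the highest for 825, close to the 782 of Ctrl replicate 1. cKO replicate 2 also had the most counts on CT010467.1, which GENCODE lists as rRNA, with 11811 CPM against 2524 and 3673 CPM in the other cKO libraries and between 1379 and 2757 CPM in Ctrl libraries. A length trend separated the genotypes as well. Genes with a mean log2 CPM of 2 or more were ordered by exonic length and cut into 10 groups of about equal size. The shortest group (27 to 645 bases) had a median log2 fold change of 0.34, and 45.8% of its genes were upregulated. The longest group (9400 bases or more) had a median of −0.16, and 18.4% of its genes were downregulated. In the shortest group all 3 cKO IP libraries lay above all 3 Ctrl IP libraries. In the Input fraction cKO replicate 1 alone showed a strong trend of this kind. Values with the length and GC trends removed are given beside several groups of short or long genes, and the part of these trends in the results was not otherwise tested.

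**Figure D1:**
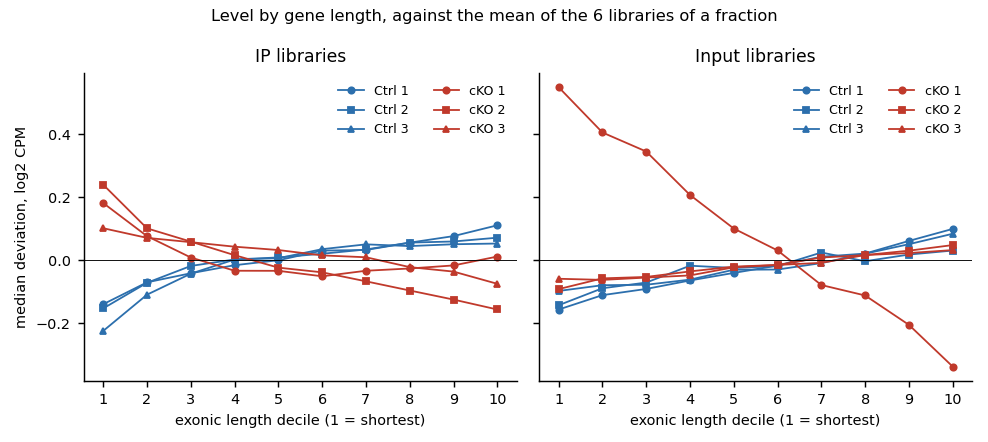
Median deviation of each library from the mean of the 6 libraries of its fraction, in log2 CPM, for genes grouped by exonic length from the shortest (1) to the longest group (10), with IP libraries on the left and Input libraries on the right. In IP the shortest group sits at 0.18, 0.24 and 0.10 in cKO and at −0.14, −0.15 and −0.22 in Ctrl libraries, and in Input cKO replicate 1 stands alone at 0.55.

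Of the 23864 genes tested in IP, 20.0% were called. Upregulated genes made up 11.6% and downregulated genes 8.42% of the genes tested, and the median log2 fold change of all of them was −0.01. These shares are the background for each group of genes below. Most changes were small: beyond a log2 fold change of 1 in size, 456 genes (1.91%) were upregulated and 223 (0.934%) downregulated. Among protein-coding genes the directions were balanced, with 1597 of 15211 upregulated and 1680 downregulated. Among pseudogenes of any type 829 of 3384 were upregulated and 75 downregulated. Many pseudogenes are near copies of ribosomal protein genes, and reads may not be told apart between them. When libraries were scaled by their total counts alone, the median of all genes shifted to −0.13 and the balance turned, with 2002 genes upregulated and 3529 downregulated. The counts also leaned on single libraries. Without cKO replicate 2, 1827 genes were upregulated and 806 downregulated, without Ctrl replicate 1 1991 and 1077, without Ctrl replicate 2 2100 and 1334, and without Ctrl replicate 3 1932 and 1251.

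**Figure D2:**
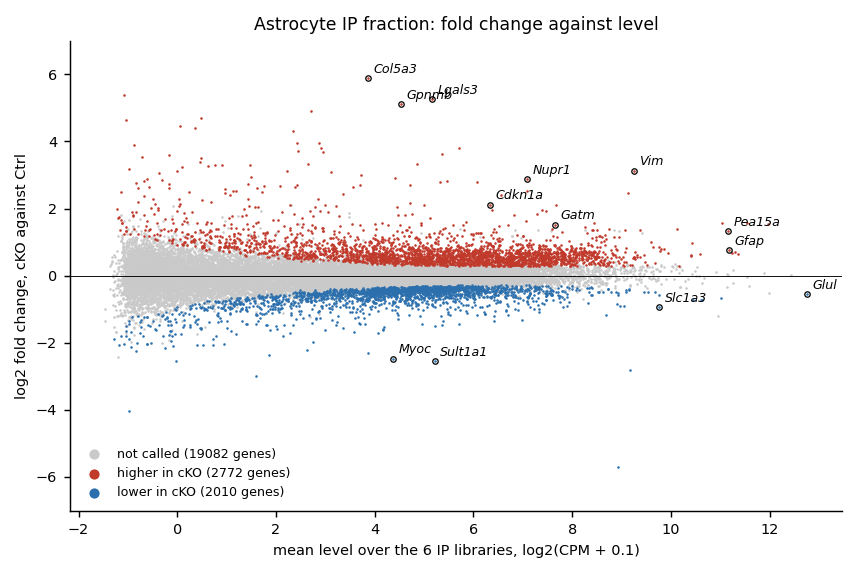
Log2 fold change of cKO against Ctrl in the IP fraction, against the mean level over the 6 IP libraries in log2(CPM + 0.1), with upregulated genes in red, downregulated genes in blue and genes not called in grey. Sult1a1 lies at −2.55 and Col5a3 at 5.89, while abundant astrocyte genes such as Glul and Slc1a3 lie between −1 and 0.

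The 15 largest falls, among genes whose mean log2 CPM reached 3, came from several pathways. Sult1a1, a phenol sulfotransferase, went from 74.9, 36.5 and 78.5 to 13.6, 9.15 and 9.54 CPM (log2 fold change −2.55, SE 0.27, adjusted p = 0.000205). Myoc, the secreted protein myocilin known from glaucoma, went from 31.5, 38 and 35.9 to 5.83, 5.26 and 7.79 CPM (log2 fold change −2.48, SE 0.15, adjusted p = 8.04e-06). Myocos, a transcript on its opposite strand that shares 93 exonic bases with it, stood at 22.7, 26.5 and 22.7 CPM in Ctrl and 4.66, 3.94 and 5.80 CPM in cKO mice (log2 fold change −2.31, SE 0.15, adjusted p = 1.28e-05). For each of them every cKO library lay below every Ctrl library, which the rule for naming them required.

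Secreted and signalling proteins were among the other large falls. Gdf10, a TGF-β family growth factor, went from 8.94, 11.6 and 15.1 to 3.02, 4.17 and 4.41 CPM (log2 fold change −1.62, SE 0.21, adjusted p = 0.000751), and Pcsk6, a proprotein convertase, had a log2 fold change of −1.57 at an adjusted p of 0.00329. Lmcd1, a LIM domain cofactor, went from 25.7, 30.4 and 25.1 to 8.98, 9.20 and 8.11 CPM (log2 fold change −1.63, SE 0.12, adjusted p = 2.74e-05). Bcar3, an adaptor of integrin and Src signalling, went from 54.1, 52.3 and 59.3 to 18.5, 17.4 and 23.1 CPM (log2 fold change −1.49, SE 0.12, adjusted p = 4.44e-05). Both were tight within each group. Phyhd1 (log2 fold change −1.71), Ranbp3l (−1.58), Cyp4f15 (−1.54), the histone gene Hist2h2be (−1.48), the calcium buffer Calb2 (−1.46) and the olfactory receptor gene Olfr287 (−1.44) fell too, with adjusted p between 5e-05 and 0.00199. Phyhd1 shares 1249 exonic bases with the gene model Gm28035 on its own strand.

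Genes that clear glutamate and GABA from the synapse were in part downregulated. Of 10 tested, 5 were downregulated and none upregulated, with a median log2 fold change of −0.38, against −0.01 over all genes. Slc1a2 (GLT-1), the main glutamate transporter of the forebrain, stood at 1558, 2258 and 2103 CPM in Ctrl and 1045, 1117 and 1449 CPM in cKO mice (log2 fold change −0.71, SE 0.16, adjusted p = 0.00927). Slc1a3 (GLAST), the other astrocyte glutamate transporter, stood at 884, 1231 and 1325 CPM in Ctrl and 488, 538 and 759.8 CPM in cKO mice (log2 fold change −0.95, SE 0.18, adjusted p = 0.00488). Both fell in every cKO mouse below the lowest Ctrl mouse.

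Glul, the glutamine synthetase that turns glutamate into glutamine, stood at 7703, 8022 and 9095 CPM in Ctrl and 5316, 5245 and 6314 CPM in cKO mice (log2 fold change −0.56, SE 0.11, adjusted p = 0.0051). Its processed copy Glns-ps1 moved with it (log2 fold change −0.58 at an adjusted p of 0.00415), and reads may not be told apart between them. Slc6a11 (GAT-3), the astrocyte GABA transporter, went from 175, 220.2 and 246 to 84.1, 90.7 and 144 CPM (log2 fold change −1.01, SE 0.19, adjusted p = 0.00483). With length and GC trends removed all 5 downregulated genes of the list were still called, among them Slc1a2 at −0.58, adjusted p = 0.0433.

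Channels and gap junctions were mixed. Of 14 genes of potassium, water and gap junction handling, 4 were downregulated and 1, Kcnj10, upregulated (median −0.27, and −0.18 with the length and GC trends removed). Gjb6, which encodes the astrocyte connexin 30, went from 174, 224 and 266 to 111, 115 and 143 CPM (log2 fold change −0.84, SE 0.15, adjusted p = 0.00376). Slc4a4, the sodium bicarbonate cotransporter that buffers pH, went from 183, 246 and 235 to 115, 125 and 158 CPM (log2 fold change −0.74, SE 0.14, adjusted p = 0.00508). Dtna (−0.55 at an adjusted p of 0.00213), a member of the dystrophin complex that anchors channels at endfeet, fell as well. Kcnj10, the inward rectifier Kir4.1, stood at 121, 199 and 179.9 CPM in Ctrl and 188, 267 and 352 CPM in cKO mice, with overlapping groups (log2 fold change 0.69, SE 0.22, adjusted p = 0.0473). Its call was lost without cKO replicate 2, cKO replicate 3, Ctrl replicate 1 or Ctrl replicate 3 (adjusted p from 0.0851 to 0.16), with a log2 fold change of 0.45 without cKO replicate 3. Aqp4, the water channel of endfeet, did not pass the test and overlapped between the groups (285, 482 and 302 CPM in Ctrl and 473, 499 and 516 CPM in cKO mice, adjusted p = 0.0738). Without Ctrl replicate 2, its adjusted p was 0.00413.

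Among subunits of the sodium pump, the regulator Fxyd6 had a log2 fold change of −0.47 at an adjusted p of 0.0115 and lost its call without Ctrl replicate 2 (adjusted p = 0.0556). The β subunits Atp1b3 (0.51 at an adjusted p of 0.0212) and Atp1b1 (0.36 at an adjusted p of 0.042) and the regulator Fxyd5 (1.40 at an adjusted p of 0.0313) were upregulated. Atp1b3 was not called without cKO replicate 2, cKO replicate 3, Ctrl replicate 1 or Ctrl replicate 3 (adjusted p from 0.0512 to 0.0877), Atp1b1 without cKO replicate 2, cKO replicate 3, Ctrl replicate 1, Ctrl replicate 2 or Ctrl replicate 3 (adjusted p from 0.0703 to 0.178) and Fxyd5 without cKO replicate 1, cKO replicate 2, Ctrl replicate 1 or Ctrl replicate 2 (adjusted p from 0.0581 to 0.158). No member of 12 genes of sodium, calcium and proton exchange was called (median −0.16, and −0.02 with the length and GC trends removed), and the lowest adjusted p among them was that of Atp2b3 (−0.43 at an adjusted p of 0.0931).

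Transcription factors of the astrocyte lineage were in part downregulated in cKO mice. Of 16 tested, 8 were downregulated and none upregulated, with a median of −0.49, and leaving out any 1 library left between 7 and 9 downregulated. Lhx2, a LIM homeobox factor, stood at 291, 289 and 286 CPM in Ctrl and 182, 173 and 203 CPM in cKO mice (log2 fold change −0.63, SE 0.10, adjusted p = 0.00144). Nfia, a driver of astrocyte formation, stood at 96.2, 96 and 90.1 CPM in Ctrl and 57.8, 56.1 and 66.6 CPM in cKO mice (log2 fold change −0.65, SE 0.10, adjusted p = 0.00157). The Ctrl libraries were nearly identical for both, and all cKO libraries lay below them. The Id factors, inhibitors of helix-loop-helix proteins, fell too: Id3 from 612, 598 and 546 to 353, 416 and 399.5 CPM (log2 fold change −0.59, SE 0.10, adjusted p = 0.0029), Id2 by a log2 fold change of −0.49 at an adjusted p of 0.00646 and Id4 by −0.48 at an adjusted p of 0.00504. With the length and GC trends removed 8 of the 16 were again downregulated.

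Genes of Hedgehog signalling were among those that fell. Sonic hedgehog from neurons binds Ptch1 on astrocytes, and Gli factors carry the signal to the nucleus, where Ptch1 is itself a target. Of 15 tested genes of Hedgehog and Notch signalling, 7 were downregulated and none upregulated (median −0.47, and −0.33 with the length and GC trends removed). The receptor Ptch1 stood at 43.5, 42.4 and 44.2 CPM in Ctrl and 27.6, 26.4 and 30.1 CPM in cKO mice (log2 fold change −0.63, SE 0.10, adjusted p = 0.00153). Gli3 went from 37.8, 40.5 and 39.7 to 22.6, 21.2 and 29.8 CPM (log2 fold change −0.68, SE 0.13, adjusted p = 0.00475) and Gli2 from 12.3, 16.4 and 12 to 6.91, 5.98 and 9.42 CPM (log2 fold change −0.86, SE 0.19, adjusted p = 0.00844). The cKO values of all 3 lay below the Ctrl values. The coreceptor Boc fell by a log2 fold change of −0.56 at an adjusted p of 0.0138. Its call was lost without cKO replicate 2 (adjusted p = 0.0547), and the number downregulated was 3 without cKO replicate 2. Jag1, a Notch ligand, was at 0.682, 1.68 and 1.39 CPM in Ctrl and 2.12, 1.90 and 3.62 CPM in cKO mice, higher without passing the test (adjusted p = 0.0557, and 0.0467 without Ctrl replicate 2).

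**Figure D3:**
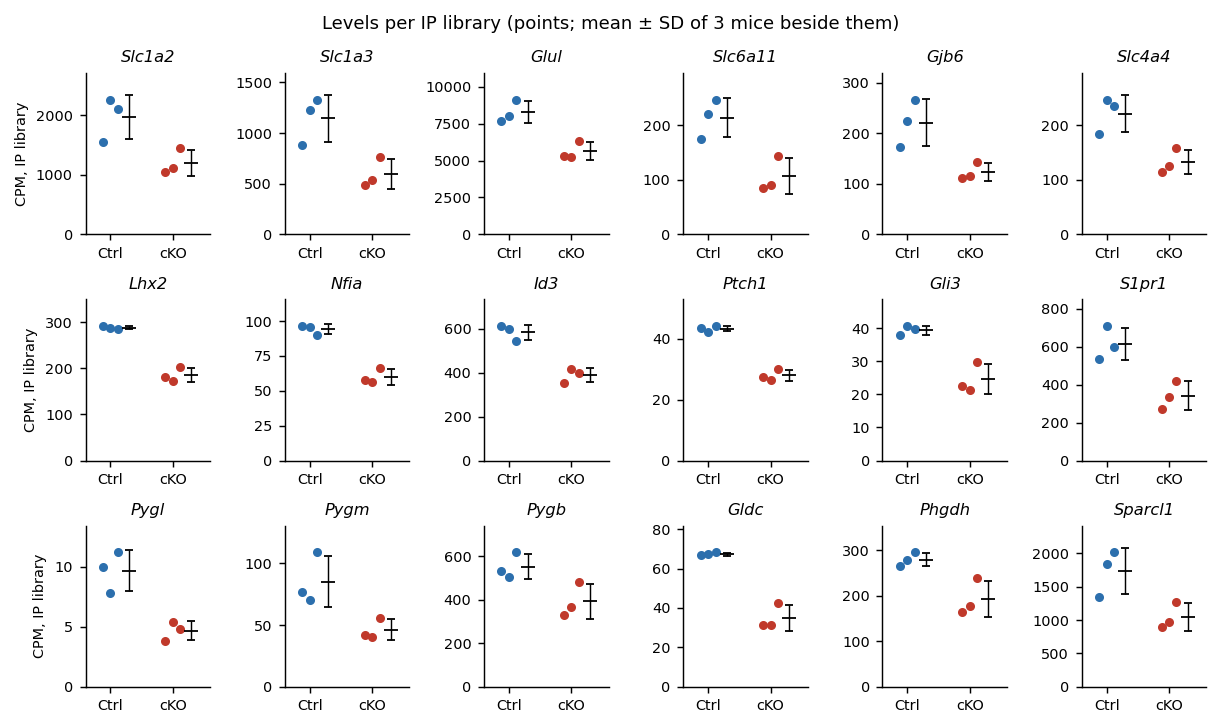
CPM in each of the 3 Ctrl (blue) and 3 cKO (red) IP libraries for 18 downregulated genes, with the mean and SD of each group in black beside the points. Every cKO point lies below every Ctrl point of its gene, and the vertical axes start at 0 and differ between genes.

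Receptors through which astrocytes sense transmitters split. Of 18 tested, 5 were downregulated and 3 upregulated, and the median was 0.01, or −0.10 with scaling by total counts alone. S1pr1, the sphingosine phosphate receptor, went from 537, 707 and 598 to 271, 334 and 419.8 CPM (log2 fold change −0.85, SE 0.16, adjusted p = 0.00414). Gabrg1, a GABA-A subunit, had a log2 fold change of −0.61 at an adjusted p of 0.00567, and the adrenergic receptor Adra2a one of −0.64 at an adjusted p of 0.0183. Ednrb, the endothelin B receptor of reactive astrocytes, rose from 121, 199 and 137 to 222, 280.2 and 316 CPM (log2 fold change 0.84, SE 0.18, adjusted p = 0.00825), with no overlap. Grin2c (−0.56), Adora2b (−0.58), Adra1a (0.40) and Adora1 (0.32) passed more narrowly (adjusted p between 0.0325 and 0.0383). Adra2a lost its call without cKO replicate 1, cKO replicate 2 or Ctrl replicate 3 (adjusted p from 0.0586 to 0.0868), Grin2c and Adora2b lost theirs without cKO replicate 1, cKO replicate 2, Ctrl replicate 2 or Ctrl replicate 3 (adjusted p from 0.0959 to 0.148) and without cKO replicate 1, cKO replicate 2, Ctrl replicate 2 or Ctrl replicate 3 (adjusted p from 0.0824 to 0.138), Adra1a without cKO replicate 2, cKO replicate 3, Ctrl replicate 1, Ctrl replicate 2 or Ctrl replicate 3 (adjusted p from 0.057 to 0.117), and Adora1 without cKO replicate 3, Ctrl replicate 1, Ctrl replicate 2 or Ctrl replicate 3 (adjusted p from 0.0786 to 0.156). The number downregulated was 2 without cKO replicate 1, 2 without cKO replicate 2, 3 without Ctrl replicate 2 and 2 without Ctrl replicate 3. Grin2c, Adora2b and Adora1 were named after their values were seen.

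Among 18 genes of synapse formation, pruning and perisynaptic adhesion, 4 were downregulated and 1 upregulated (median −0.17). Mertk, a receptor for engulfing synapses and debris, went from 50.7, 74.8 and 71.2 to 34.7, 27.8 and 35.7 CPM (log2 fold change −1.0, SE 0.15, adjusted p = 0.00154). Sparcl1 (hevin), a secreted synaptogenic protein, went from 1352, 1847 and 2015 to 891, 974 and 1278 CPM (log2 fold change −0.73, SE 0.17, adjusted p = 0.0105), and lost its call without cKO replicate 2 (adjusted p = 0.053). Gpc5, a glypican, fell by a log2 fold change of −0.81 at an adjusted p of 0.00907. Nlgn3, an adhesion protein, had one of −0.46 at an adjusted p of 0.0417, a call that was lost without cKO replicate 1, cKO replicate 2, Ctrl replicate 2 or Ctrl replicate 3 (adjusted p from 0.0649 to 0.17) and with length and GC trends removed (−0.34, adjusted p = 0.124). The number downregulated was 2 without cKO replicate 2 and 7 without cKO replicate 3. Chrdl1, which makes synapses mature through GluA2 receptors, moved the other way, from 21.1, 38.6 and 39.4 to 60.2, 76.8 and 90.0 CPM (log2 fold change 1.20, SE 0.22, adjusted p = 0.00365).

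Glycogen is the glucose store that the brain keeps in astrocytes, and part of its genes were downregulated. Of 11 tested, 5 were downregulated and none upregulated (median −0.46, and −0.33 with the length and GC trends removed), among them all 3 glycogen phosphorylases. Pygl went from 10.0, 7.84 and 11.2 to 3.84, 5.39 and 4.85 CPM (log2 fold change −1.04, SE 0.18, adjusted p = 0.00289) and Pygm from 76.6, 70.2 and 109 to 42.1, 40.3 and 56.1 CPM (log2 fold change −0.88, SE 0.17, adjusted p = 0.00528). Pygb, the brain form, stood at 534, 505 and 617 CPM in Ctrl and 328, 368 and 482 CPM in cKO mice (log2 fold change −0.49, SE 0.14, adjusted p = 0.0316). Ppp1r3d, which brings a phosphatase to glycogen, fell by a log2 fold change of −0.66 at an adjusted p of 0.00258. Pygb lost its call without cKO replicate 1, cKO replicate 2, Ctrl replicate 1 or Ctrl replicate 3 (adjusted p from 0.0652 to 0.123). The number downregulated was 3 without cKO replicate 1, 3 without cKO replicate 2 and 3 without Ctrl replicate 3.

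Glycolysis and lactate genes leaned the other way, with 6 of 19 upregulated and 2 downregulated (median 0.11, and 0.00 with scaling by total counts alone). Pgam1, phosphoglycerate mutase, went from 426, 395 and 411 to 619, 648 and 726 CPM (log2 fold change 0.69, SE 0.10, adjusted p = 0.00108). Slc16a1, the lactate transporter MCT1, went from 17.3, 22.6 and 18.4 to 31.5, 41.4 and 37.6 CPM (log2 fold change 0.92, SE 0.14, adjusted p = 0.00134). The lactate dehydrogenase subunits parted: Ldha rose from 314, 328 and 302 to 442, 422 and 515 CPM (log2 fold change 0.55, SE 0.10, adjusted p = 0.0045), and Ldhb fell from 839, 753 and 858 to 592, 534 and 632 CPM (log2 fold change −0.48, SE 0.10, adjusted p = 0.00832). Tpi1 had a log2 fold change of 0.40 at an adjusted p of 0.0111, and lost its call without Ctrl replicate 2 (adjusted p = 0.0514). The glucose transporter gene Slc2a1 was lower with overlapping groups (−0.55 at an adjusted p of 0.0398), a call that was lost without cKO replicate 1, cKO replicate 2, Ctrl replicate 2 or Ctrl replicate 3 (adjusted p from 0.12 to 0.124).

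Serine, glycine and folate metabolism moved in both directions, with 7 of 24 genes upregulated and 3 downregulated (median 0.20). Gatm, which makes the creatine precursor from glycine, went from 112, 109 and 91.5 to 292, 321 and 279 CPM (log2 fold change 1.51, SE 0.11, adjusted p = 1.92e-05). Aldh1l2, the mitochondrial formyltetrahydrofolate dehydrogenase, went from 2.92, 3.25 and 2.65 to 13.4, 11.2 and 13.5 CPM (log2 fold change 2.11, SE 0.15, adjusted p = 1.92e-05). All cKO mice lay above all Ctrl mice for both genes. The other upregulated members were Mthfd2 (1.0), Shmt2 (0.60) and Shmt1 (0.51) of the folate cycle and the glycine enzymes Gcat (0.59) and Gcsh (0.46), with adjusted p between 0.00344 and 0.048. Shmt1, Shmt2, Mthfd2 and Slc7a10 were named after their values were seen, and Shmt1 lost its call without cKO replicate 1, cKO replicate 2, cKO replicate 3, Ctrl replicate 1 or Ctrl replicate 3 (adjusted p from 0.0612 to 0.147).

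The downregulated members of this pathway hold the start of serine synthesis and the breakdown of glycine. Phgdh, the enzyme that commits 3-phosphoglycerate to serine, stood at 266, 278 and 296 CPM in Ctrl and 164, 177 and 239 CPM in cKO mice (log2 fold change −0.53, SE 0.14, adjusted p = 0.0182). Gldc, the decarboxylase of the glycine cleavage system, stood at 66.6, 67.2 and 68.2 CPM in Ctrl and 31.1, 31.2 and 42.6 CPM in cKO mice (log2 fold change −0.94, SE 0.13, adjusted p = 0.000794), with no overlap. Slc7a10, the carrier of small neutral amino acids known as Asc-1, had a log2 fold change of −0.94 at an adjusted p of 0.0373 with overlapping groups. Gcsh, the carrier protein of the same cleavage system as Gldc, rose from 135, 133 and 134 to 182, 193 and 179 CPM, so that 2 parts of 1 complex moved in opposite directions. Phgdh lost its call without cKO replicate 1, cKO replicate 2, Ctrl replicate 2 or Ctrl replicate 3 (adjusted p from 0.0515 to 0.0839), and Slc7a10 without cKO replicate 1, cKO replicate 2, Ctrl replicate 2 or Ctrl replicate 3 (adjusted p from 0.105 to 0.134).

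Other abundant transcripts also fell. Among called genes with a log2 fold change of −0.5 or less, those with the highest Ctrl levels included Fam107a, an actin-binding stress protein of astrocytes, which went from 2425, 2305 and 2894 to 1653, 1574 and 1618 CPM (log2 fold change −0.65, SE 0.11, adjusted p = 0.00211). Ndrg2, an astrocyte protein induced by glucocorticoids, went from 1829, 1769 and 2269 to 1051, 1105 and 1415 CPM (log2 fold change −0.72, SE 0.14, adjusted p = 0.00475). Tsc22d3 (GILZ), a classical glucocorticoid target, went from 614, 594 and 865 to 411, 388 and 309.6 CPM (log2 fold change −0.90, SE 0.16, adjusted p = 0.00294). Ahcyl1, a regulator of IP3 receptors, fell by a log2 fold change of −0.89 at an adjusted p of 0.000497, the ubiquitin ligase gene Ubr3 by −1.17 at an adjusted p of 0.00188 and the ankyrin gene Ank2 by −0.52 at an adjusted p of 0.0106, a call that was lost without Ctrl replicate 2 (adjusted p = 0.0514).

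The largest rises included genes of the extracellular matrix, the lysosome and the reactive state. Col5a3, a collagen V chain, stood at 0.757, 0.420 and 0.238 CPM in Ctrl and 33, 20.8 and 31.3 CPM in cKO mice (log2 fold change 5.89, SE 0.30, adjusted p = 1.61e-06). Lgals3 (galectin-3) stood at 1.82, 2.33 and 1.31 CPM in Ctrl and 45.9, 99.8 and 64.4 CPM in cKO mice (log2 fold change 5.26, SE 0.31, adjusted p = 5.77e-06). Gpnmb, a lysosomal glycoprotein, stood at 1.21, 1.45 and 1.23 CPM in Ctrl and 26.1, 59.1 and 49 CPM in cKO mice (log2 fold change 5.10, SE 0.31, adjusted p = 6.57e-06). All 3 were low in every Ctrl mouse and far above that in every cKO mouse.

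Vim (vimentin), the intermediate filament of immature and reactive astrocytes, stood at 125, 122 and 129 CPM in Ctrl and 558, 1747 and 981 CPM in cKO mice (log2 fold change 3.13, SE 0.32, adjusted p = 0.00018). S100a4, a calcium-binding protein, stood at 7.16, 7.45 and 6.46 CPM in Ctrl and 54.4, 161 and 75.9 CPM in cKO mice (log2 fold change 3.79, SE 0.35, adjusted p = 9.26e-05), and Gm42674, which shares 302 exonic bases with it on the same strand, at 6.78, 6.54 and 5.23 CPM in Ctrl and 42, 125 and 62 CPM in cKO mice. In these genes cKO replicate 2 was the highest. Cav1 (log2 fold change 3.32), Anxa3 (3.10), Cela1 (2.99), Igfbp3 (2.90), Tagln2 (2.82), Ifitm3 (2.80), Lgals1 (2.79), S100a11 (2.71) and Ip6k3 (2.70) were also among the 15 largest rises.

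Of 34 tested genes known from reactive astrocytes, 16 were upregulated and 2 downregulated (median 0.67), and cKO replicate 2 was the highest cKO library for 15 of the 16. Gfap, the filament protein that marks astrogliosis, went from 1622, 1921 and 1596 to 2589, 3184 and 2943 CPM (log2 fold change 0.76, SE 0.11, adjusted p = 0.0014). The small heat shock protein gene Hspb1 had a log2 fold change of 3.67 at an adjusted p of 0.000142, the cytokine gene Clcf1 one of 3.30 at an adjusted p of 6e-05, Emp1 one of 2.68 at an adjusted p of 0.000135 and S100a10 one of 1.96 at an adjusted p of 5.82e-05. Iigp1 fell (−1.28 at an adjusted p of 0.00825), as did Fbln5 (−1.65 at an adjusted p of 0.0181), both at low levels, and Fbln5 lost its call without cKO replicate 1, cKO replicate 2, Ctrl replicate 1 or Ctrl replicate 3 (adjusted p from 0.0593 to 0.079). Without cKO replicate 2, 15 of the 34 were upregulated.

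Of 30 cytoskeleton genes 12 were upregulated and 2 downregulated (median 0.15). Tubb6, a β-tubulin, went from 8.63, 7.80 and 7.84 to 23.3, 22.2 and 25.6 CPM (log2 fold change 1.55, SE 0.12, adjusted p = 2.71e-05). The actin-severing cofilin gene Cfl1 went from 1229.5, 1169 and 1201 to 1734, 2039.7 and 1907 CPM (log2 fold change 0.66, SE 0.10, adjusted p = 0.00131), and Msn (moesin) had a log2 fold change of 0.98 at an adjusted p of 0.000354. The tubulins Tubb2a (0.60 at an adjusted p of 0.0026) and Tubb2b (0.61 at an adjusted p of 0.00329) were among the most abundant upregulated genes. Actn4 fell (−0.51 at an adjusted p of 0.00584), as did Ezr, the ezrin of fine astrocyte processes (−0.46 at an adjusted p of 0.0385), whose groups overlapped and whose call was lost without cKO replicate 1, cKO replicate 2, Ctrl replicate 2 or Ctrl replicate 3 (adjusted p from 0.0973 to 0.136). The number downregulated was 1 without cKO replicate 1, 1 without cKO replicate 2, 4 without cKO replicate 3, 1 without Ctrl replicate 2 and 1 without Ctrl replicate 3.

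**Figure D4:**
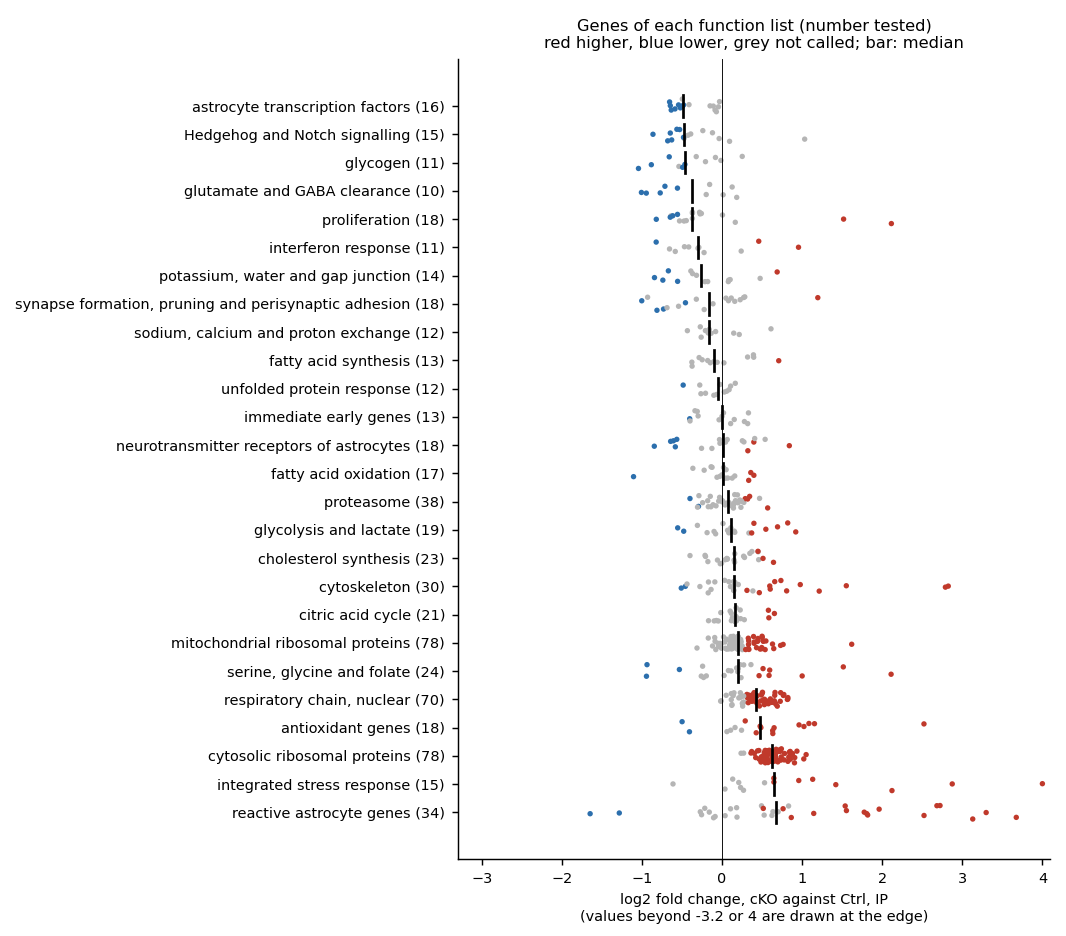
Log2 fold change of every tested gene of 26 function lists in IP, ordered by the list median (black bar), with upregulated genes in red, downregulated genes in blue and the number tested in brackets. The medians run from −0.49 for astrocyte transcription factors to 0.67 for reactive astrocyte genes.

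Genes of the integrated stress response were in part upregulated. In this response, stress kinases phosphorylate eIF2α, and the factor ATF4 then turns on amino acid and survival genes through composite C/EBP-ATF sites. Of 15 tested genes 8 were upregulated and none downregulated (median 0.65), and the count was 8 or 9 whichever library was left out. Nupr1, a stress-induced chromatin protein, stood at 27.3, 39.9 and 30.9 CPM in Ctrl and 244, 244 and 231 CPM in cKO mice (log2 fold change 2.87, SE 0.14, adjusted p = 1.61e-06). Trib3, a pseudokinase that restrains ATF4, stood at 0.151, 0.0765 and 0.0792 CPM in Ctrl and 3.07, 1.22 and 2.54 CPM in cKO mice (log2 fold change 4.41, SE 0.48, adjusted p = 0.000281), so that its fold rests on few Ctrl counts, with 2 of the 3 libraries under the floor of 3 counts. Atf5 went from 29, 29 and 25.2 to 61.3, 56.9 and 64 CPM (log2 fold change 1.13, SE 0.10, adjusted p = 8.01e-05). Every cKO library lay above every Ctrl library in these genes, and cKO replicate 2 was the highest for 2 of the 8. Atf3 had a log2 fold change of 2.12 at an adjusted p of 0.00203 and Cebpb one of 0.96 at an adjusted p of 0.00214. Ddit4 was at 107, 128 and 189 CPM in Ctrl and 86.8, 75.5 and 115 CPM in cKO mice, with overlapping groups (adjusted p = 0.0539), and reached 0.0242 without cKO replicate 3 and 0.0222 without Ctrl replicate 1.

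The 250 bases before the start site of these genes were searched on both strands for the letters TGATGNAA, the core of the composite site. Promoters were taken from RefSeq on GRCm38.p6, which held 14 of the 15 genes. The letters were present in 5 of the 14 genes (35.7%), and in 2.43% of the 13140 tested genes with a promoter. Of the 8 upregulated genes 3 held them (37.5%), a share close to that of the list. The list was written for a response that acts through such sites, so that its higher share is not a test of the rises. The 3 upregulated genes with a match are shown, with the match in capitals. Each carries it on the reverse strand.
Nupr1 (chr7:126625471-126625720, minus strand): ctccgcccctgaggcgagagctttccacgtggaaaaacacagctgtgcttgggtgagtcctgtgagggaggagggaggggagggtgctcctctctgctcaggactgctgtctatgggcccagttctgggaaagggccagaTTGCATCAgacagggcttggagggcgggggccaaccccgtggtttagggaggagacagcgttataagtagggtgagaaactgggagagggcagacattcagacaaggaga
Atf3 (chr1:191183334-191183583, minus strand): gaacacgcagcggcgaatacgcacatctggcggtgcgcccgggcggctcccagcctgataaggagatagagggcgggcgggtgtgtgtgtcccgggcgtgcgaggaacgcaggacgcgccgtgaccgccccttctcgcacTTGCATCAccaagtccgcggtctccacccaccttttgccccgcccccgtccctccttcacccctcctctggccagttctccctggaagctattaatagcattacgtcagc
Chac1 (chr2:119350992-119351241, plus strand): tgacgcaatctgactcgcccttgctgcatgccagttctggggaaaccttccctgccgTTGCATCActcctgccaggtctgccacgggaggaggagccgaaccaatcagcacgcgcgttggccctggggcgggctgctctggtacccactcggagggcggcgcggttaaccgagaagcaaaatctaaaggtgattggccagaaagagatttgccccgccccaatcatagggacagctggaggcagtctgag
The match begins 110 bases before the start in Nupr1 and Atf3, and 193 bases before it in Chac1, which encodes a glutathione-degrading enzyme and stood at 3.60, 3.10 and 4.51 CPM in Ctrl and 11.4, 6.30 and 12.2 CPM in cKO mice (log2 fold change 1.42, SE 0.24, adjusted p = 0.0028). Chac1 was named after its value was seen. Asns and Slc7a11, which were not called, hold the letters too. Of 21 genes of serine, glycine and folate metabolism with a promoter, none held them. A match is a string of letters and does not show that a factor binds there.

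The unfolded protein response of the endoplasmic reticulum showed 1 call. Of 12 tested genes none was upregulated and 1, Herpud1, was downregulated (−0.49 at an adjusted p of 0.0352), a call that was lost without cKO replicate 1, cKO replicate 2, Ctrl replicate 2 or Ctrl replicate 3 (adjusted p from 0.0898 to 0.131). Hspa5 (BiP), the main chaperone of this response, stood at 68.6, 83.9 and 66.8 CPM in Ctrl and 71.4, 80.0 and 94.4 CPM in cKO mice, which overlapped (log2 fold change 0.17 at an adjusted p of 0.402). The median over the list was −0.05.

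Of 18 antioxidant genes 12 were upregulated and 2 downregulated (median 0.48), and between 11 and 12 were upregulated whichever library was left out. Srxn1 (sulfiredoxin), which repairs peroxiredoxins, stood at 71.3, 72.5 and 76.7 CPM in Ctrl and 148, 154 and 146 CPM in cKO mice (log2 fold change 1.02, SE 0.09, adjusted p = 6.22e-05). Gsr, glutathione reductase, went from 41.3, 41.4 and 39.5 to 96.3, 87 and 76.1 CPM (log2 fold change 1.09, SE 0.11, adjusted p = 0.000142), and Txn1, thioredoxin, from 135, 135 and 116 to 268, 339 and 252 CPM (log2 fold change 1.15, SE 0.13, adjusted p = 0.000266). The separation of the groups was complete in these genes. Osgin1 had a log2 fold change of 2.52 at an adjusted p of 0.000602, Gstm1 one of 0.96 at an adjusted p of 0.000204 and Prdx6 one of 0.63 at an adjusted p of 0.00235. Gstm1 has pseudogene copies whose reads may not be told apart from it. Against them, Gsta4, which detoxifies lipid aldehydes, fell (−0.50 at an adjusted p of 0.0113). Nqo1, a textbook target of the factor NRF2, had −0.41 at an adjusted p of 0.048. Its call was lost without cKO replicate 1, cKO replicate 2, cKO replicate 3, Ctrl replicate 1 or Ctrl replicate 3 (adjusted p from 0.0577 to 0.17). The part of NRF2 in the changes of this list was not tested.

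Cell cycle genes were called in both directions. Cdkn1a (p21), a brake of the cell cycle, stood at 30.2, 31.5 and 29.5 CPM in Ctrl and 131, 136 and 128 CPM in cKO mice (log2 fold change 2.11, SE 0.09, adjusted p = 1.02e-06), and cyclin D1 (Ccnd1) at 30.6, 26.5 and 28.2 CPM in Ctrl and 77.2, 80.6 and 86.1 CPM in cKO mice (log2 fold change 1.52, SE 0.10, adjusted p = 1.12e-05). Of 18 proliferation genes these were the 2 upregulated (11.1%), and 4 were downregulated (22.2%, with a list median of −0.37). Top2a, topoisomerase of dividing cells, went from 14, 15.4 and 14.6 to 10.3, 7.21 and 7.39 CPM (log2 fold change −0.82, SE 0.15, adjusted p = 0.0041), and the replication helicase genes Mcm3 (−0.65 at an adjusted p of 0.0114), Mcm6 (−0.56 at an adjusted p of 0.0117) and Mcm5 (−0.62 at an adjusted p of 0.0149, named after its value was seen) fell as well. Mcm3 lost its call without cKO replicate 2 (adjusted p = 0.054), and Mcm5 without cKO replicate 2 or Ctrl replicate 2 (adjusted p from 0.0535 to 0.0692). The number downregulated was 2 without cKO replicate 2.

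Nuclear genes of the respiratory chain were upregulated in 51 of 70 cases and downregulated in none, with a median of 0.43. Cox5a, a subunit of cytochrome oxidase, went from 235, 223 and 195 to 364, 426 and 366 CPM (log2 fold change 0.82, SE 0.11, adjusted p = 0.00077). Ndufa4 went from 277, 276 and 291 to 470.1, 469.8 and 462 CPM (log2 fold change 0.73, SE 0.09, adjusted p = 0.000491). Cox6a1 (0.82), Atp5mpl (0.77) and Ndufa1 (0.73) moved alike. These are short transcripts, with a median exonic length of 1631 bases against 2878.5 over all tested genes, and cKO replicate 2 was the highest cKO library for 36 of the 51. With length and GC trends removed 47 of the 70 were upregulated (median 0.37), and without cKO replicate 2 the number was 42. In Input the median of the list was 0.50, with no member called there and with the length trend of cKO replicate 1 in it. The chain's genes in the mitochondrial genome were not counted in any library and could not be assessed.

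In the citric acid cycle 3 of 21 genes were upregulated and none downregulated (median 0.16). The 3 were subunits of succinate dehydrogenase, which also serves as complex II of the respiratory chain. Sdha, another subunit of this enzyme, was not called (log2 fold change −0.07). For all 3 upregulated genes cKO replicate 2 was the highest cKO library. Sdhc went from 245, 223 and 226 to 345, 387 and 359.6 CPM (log2 fold change 0.65, SE 0.09, adjusted p = 0.00123), Sdhb had a log2 fold change of 0.58 at an adjusted p of 0.00159 and Sdhd one of 0.58 at an adjusted p of 0.00372. Each kept its call whichever library was left out. With the length and GC trends removed 6 of the 21 were upregulated.

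Ribosomal protein genes were the most uniform of the lists. Of 78 genes of the cytosolic ribosome 76 were upregulated and none downregulated (median 0.62). Rpl23a went from 166, 179 and 142 to 326, 384 and 280.2 CPM (log2 fold change 1.02, SE 0.13, adjusted p = 0.000669), and Rps19 from 126, 112 and 101 to 203, 236 and 178 CPM (log2 fold change 0.86, SE 0.12, adjusted p = 0.00123). Rpl39 (0.94), Rps27l (0.91) and Rps23 (0.75) moved with them. In all 76, cKO replicate 2 was the highest cKO library, and in 75 Ctrl replicate 3 was the lowest Ctrl library. With length and GC trends removed 75 were upregulated, and leaving out 1 library left between 62 and 77. The Input median was 0.57, with the same trend in it and no member called. Eef1a1, the elongation factor that brings tRNAs to the ribosome, rose from 2124, 1818 and 1636 to 2951, 3442 and 2548 CPM (log2 fold change 0.68, SE 0.13, adjusted p = 0.0051), as did its copy Gm13456, and reads of the 2 may not be told apart. Of 78 genes of the mitochondrial ribosome 27 were upregulated and none downregulated (median 0.20). The number upregulated was 15 without cKO replicate 2 and 17 without Ctrl replicate 3. Mrps6 had the largest rise among them (1.62 at an adjusted p of 6.17e-05) and shares exonic bases with Slc5a3.

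In the other metabolic groups most genes were not called. Of 23 genes of cholesterol synthesis 3 were upregulated and none downregulated (median 0.15): Insig1 (0.51 at an adjusted p of 0.00915), Ebp (0.64 at an adjusted p of 0.0212) and Hsd17b7 (0.45 at an adjusted p of 0.0231). Ebp lost its call without cKO replicate 2, cKO replicate 3, Ctrl replicate 1 or Ctrl replicate 2 (adjusted p from 0.0631 to 0.081), and Hsd17b7 without cKO replicate 2, Ctrl replicate 1 or Ctrl replicate 3 (adjusted p from 0.058 to 0.0809). The number upregulated was 6 without cKO replicate 1, 1 without cKO replicate 2 and 1 without Ctrl replicate 1. The sterol regulatory element letters TCACNCCAC were found before the start of 1 of 17 genes of this list with a promoter and of 1.28% of tested genes. In fatty acid synthesis 1 of 13 genes was called, Me1, the malic enzyme that supplies NADPH (0.71 at an adjusted p of 0.00101), and the median was −0.10. In fatty acid oxidation 3 of 17 were upregulated, among them Hadhb (0.40 at an adjusted p of 0.0108) and Hadh (0.36 at an adjusted p of 0.0191), and 1 was downregulated (median 0.02, and −0.10 with scaling by total counts alone). Hadhb lost its call without Ctrl replicate 1 (adjusted p = 0.0561), and Hadh without Ctrl replicate 1 or Ctrl replicate 2 (adjusted p from 0.0758 to 0.0851). The number upregulated was 0 without Ctrl replicate 1 and 1 without Ctrl replicate 2.

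Most proteasome, interferon and immediate early genes were not called. Of 38 proteasome genes 4 were upregulated and 2 downregulated (median 0.07, and −0.04 with scaling by total counts alone). Psmb10, an immunoproteasome subunit (0.57 at an adjusted p of 0.00369), kept its call whichever library was left out, and the number upregulated was 1 without cKO replicate 2, 1 without Ctrl replicate 1, 1 without Ctrl replicate 2 and 1 without Ctrl replicate 3. Of 11 interferon response genes 2 were upregulated, Bst2 (0.95 at an adjusted p of 0.0127) and B2m (0.46 at an adjusted p of 0.0322), and 1 downregulated, Oasl2 (−0.82 at an adjusted p of 0.032), with a median of −0.30. Bst2 lost its call without cKO replicate 2 (adjusted p = 0.0583), B2m without cKO replicate 2, Ctrl replicate 1 or Ctrl replicate 3 (adjusted p from 0.105 to 0.126), and Oasl2 without cKO replicate 1, cKO replicate 2, cKO replicate 3 or Ctrl replicate 1 (adjusted p from 0.0572 to 0.142), with a log2 fold change of −0.52 without Ctrl replicate 1. Of 13 immediate early genes 1 was called, Egr1, which was lower (−0.40 at an adjusted p of 0.0212) but not called without cKO replicate 2, cKO replicate 3 or Ctrl replicate 1 (adjusted p from 0.0596 to 0.108), and the median was 0.00.

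Of the rRNA-like entries, CT010467.1 (log2 fold change 1.55 at an adjusted p of 0.0368), Gm42418 (1.56) and AY036118 (1.57) lie over one another on chromosome 17 and were among the most abundant upregulated entries. Their groups overlapped, and each lost its call without cKO replicate 2, Ctrl replicate 1 or Ctrl replicate 3 (adjusted p from 0.0958 to 0.16). Without cKO replicate 2 their log2 fold changes were 0.61, 0.61 and 0.63. Pea15a, a cytosolic phosphoprotein abundant in astrocytes, rose from 1302, 1329 and 1289.7 to 2942, 3371 and 3488 CPM (log2 fold change 1.32, SE 0.10, adjusted p = 2.52e-05). Selenow, a selenoprotein (0.81 at an adjusted p of 0.00151), and Mgll, the lipase that ends endocannabinoid signalling in glia (0.74 at an adjusted p of 0.00101), were also among them, as was Gm26668 (0.72 at an adjusted p of 0.00158).

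The cell type of the fraction was checked with marker lists on a common scale of all 12 TRAP-Seq libraries. The summed CPM of 14 astrocyte markers ran from 21274 to 26849.7 in Ctrl IP and from 18503 to 24360.1 in cKO IP, against from 2052 to 2365 in Ctrl Input and from 2917 to 3706 in cKO Input. Both genotypes were enriched for astrocyte transcripts, and the IP-to-Input ratio was 11 in Ctrl and 6.34 in cKO mice. Within IP, 4 of the 14 were downregulated (Slc1a3, Gjb6, Slc1a2 and Glul) and Gfap was upregulated. The number downregulated was 7 without cKO replicate 3. No marker on any list was at 0 in all IP libraries.

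Neuron markers were present in IP at 0.368 of their Input level in Ctrl and 0.365 in cKO mice, with sums from 3518 to 4115 CPM in Ctrl IP and from 3377 to 3561 CPM in cKO IP. Of the 14, Tubb3 (−0.58 at an adjusted p of 0.00421), Syp (−0.43 at an adjusted p of 0.00658) and Camk2a (−0.38 at an adjusted p of 0.0316) were downregulated, and Camk2a lost its call without cKO replicate 2, cKO replicate 3, Ctrl replicate 1 or Ctrl replicate 3 (adjusted p from 0.071 to 0.131). Oligodendrocyte markers summed from 1711 to 2485 CPM in Ctrl IP and from 1580.3 to 1928 CPM in cKO IP, with none of 9 called. The sums of the 2 groups overlapped in both cases.

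Microglia markers were the list of another cell type that stood out in cKO replicate 2. Their sum ran from 130.4 to 154 CPM in Ctrl IP and from 142 to 265 CPM in cKO IP. Of the 12, 2 were called upregulated. The complement gene C1qb was one of them and stood at 1.02, 1.30 and 1.27 CPM in Ctrl and 2.25, 2.72 and 3.18 CPM in cKO mice (log2 fold change 1.18, SE 0.23, adjusted p = 0.00501). The number was 1 without cKO replicate 2, 1 without Ctrl replicate 1, 1 without Ctrl replicate 2 and 1 without Ctrl replicate 3. Cx3cr1, a defining microglial receptor, stood at 77.8, 83.8 and 75.5 CPM in Ctrl and 75.8, 64.3 and 71.9 CPM in cKO mice, without passing the test. Lgals3 and Gpnmb are also known from activated microglia, and the part of microglial RNA in their rise was not tested.

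Of the remaining marker lists, mural and ependymal markers had 2 of 6 called each and the others 1 or none. Of 7 tested precursor markers Gpr17 was upregulated (0.84 at an adjusted p of 0.0395), of 6 mural markers Tagln (0.89 at an adjusted p of 0.00362) and Rgs5 (0.88 at an adjusted p of 0.0415), and none of 7 endothelial markers was called, with sums from 5.65 to 6.69 CPM in Ctrl IP and from 6.31 to 8.58 CPM in cKO IP. The median of the mural list was 0.08, and Vtn, another member, was not called (−0.15 at an adjusted p of 0.699). Of 4 meningeal markers Col1a1 was downregulated (−1.25 at an adjusted p of 0.0424), and of 6 ependymal and choroid plexus markers Dynlrb2 (−0.75 at an adjusted p of 0.00957) and Ccdc153 (−0.69 at an adjusted p of 0.014). The median of this last list was −0.16. Its members Ttr (0.98 at an adjusted p of 0.185), which was higher, and Foxj1 (−0.14 at an adjusted p of 0.64) were not called. The ependymal and choroid plexus sum ran from 59.4 to 82.6 CPM in Ctrl IP and from 49.6 to 52.9 CPM in cKO IP, without overlap. These markers were themselves enriched in IP, with an IP-to-Input ratio of 4.42 in Ctrl and 2.26 in cKO mice. The mural sum ran from 26.5 to 37.9 CPM in Ctrl IP and from 37.9 to 47.7 CPM in cKO IP, with an IP-to-Input ratio of 1.36 in Ctrl and 1.45 in cKO mice. None of 6 striatum markers or 5 blood markers was called, although the blood sum ran from 46.6 to 106 CPM in Ctrl IP and from 62.1 to 140.4 CPM in cKO IP. Gpr17 lost its call without cKO replicate 2, cKO replicate 3, Ctrl replicate 1, Ctrl replicate 2 or Ctrl replicate 3 (adjusted p from 0.0638 to 0.16), with a log2 fold change of 0.46 without cKO replicate 2. Rgs5 lost its call without cKO replicate 1, cKO replicate 2, Ctrl replicate 1 or Ctrl replicate 3 (adjusted p from 0.0667 to 0.129), Col1a1 without cKO replicate 1, cKO replicate 2, Ctrl replicate 1 or Ctrl replicate 3 (adjusted p from 0.0888 to 0.172) and Ccdc153 without cKO replicate 2 or Ctrl replicate 1 (adjusted p from 0.0584 to 0.0594). Gpr17, Tagln, Rgs5, Col1a1, Dynlrb2 and Ccdc153 were named because they were called.

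Most of these genes did not pass the test in the lysate from which the IP fraction was taken. In Input 26 of 23828 genes (0.109%) were called, among them Vim, Lgals3, Col5a3, S100a4, Gm42674, Nupr1, Ip6k3, Prdx6 and Gstm1 of the genes named above. Vim and Lgals3 changed by a similar size in Input, with a log2 fold change of 3.41 at an adjusted p of 0.022 for Vim and 5.46 at an adjusted p of 0.00382 for Lgals3. Vim was the only one of the 34 reactive genes called in Input, and Clcf1, another of them, had 0.32 at an adjusted p of 0.836 there. None of the 10 genes that follow passed the test in Input. Of genes that fell in IP, Slc1a2 had an Input log2 fold change of −0.11 at an adjusted p of 0.924, Slc1a3 0.06 at an adjusted p of 0.949, Glul 0.29 at an adjusted p of 0.812 and Lhx2 0.05 at an adjusted p of 0.932. Of the largest falls in IP, Myoc had −1.55 at an adjusted p of 0.25 in Input, Myocos −0.97 at an adjusted p of 0.776, Cyp4f15 −0.68 at an adjusted p of 0.812, Ranbp3l −0.60 at an adjusted p of 0.812, Gdf10 −0.49 at an adjusted p of 0.812 and Sult1a1 −0.42 at an adjusted p of 0.812. A p that misses the threshold does not show that the lysate was unchanged. Leaving out cKO Input replicate 1, whose length trend stands apart, raised the calls from 26 to 112, and leaving out Ctrl Input replicate 1, 2 or 3 lowered them to 5, 4 and 5.

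The difference between the fractions was tested by the interaction of fraction and genotype, in which 15 of 25768 genes (0.0582%) were called. Lmcd1 fell more in IP than in Input, by −1.61 (SE 0.23, adjusted p = 0.0254) on the log2 scale, and so did Bcar3, by −1.25 (SE 0.18, adjusted p = 0.0254). Igfbp3, a binding protein of insulin-like growth factors, rose more in IP, by 2.42 (SE 0.27, adjusted p = 0.00504), as did the elastase gene Cela1, by 2.53 (SE 0.32, adjusted p = 0.0144), Cdkn1a, by 1.57 (SE 0.23, adjusted p = 0.0254), and Ccnd1, by 1.37 (SE 0.22, adjusted p = 0.0467). Of the 6 largest falls Sult1a1, Myoc, Myocos and Phyhd1 did not pass (adjusted p from 0.0901 to 0.416), and of the 6 largest rises none did (from 0.244 to 0.992). Slc1a3 differed by −1.01 (adjusted p = 0.285) and Lhx2 by −0.69 (adjusted p = 0.132), so that a difference between the fractions was not shown for them. With the mouse as a block 6 genes passed, Igfbp3 and Cela1 among them, while Lmcd1, Bcar3, Cdkn1a and Ccnd1 had adjusted p between 0.0657 and 0.112. Without cKO Input replicate 1 432 genes passed. The number was 3 without Ctrl IP replicate 1, Ctrl IP replicate 3 or Ctrl Input replicate 1, 4 without Ctrl Input replicate 2, 6 without cKO IP replicate 1 or cKO IP replicate 3, and 8 without Ctrl IP replicate 2 or cKO Input replicate 3.

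**Figure D5:**
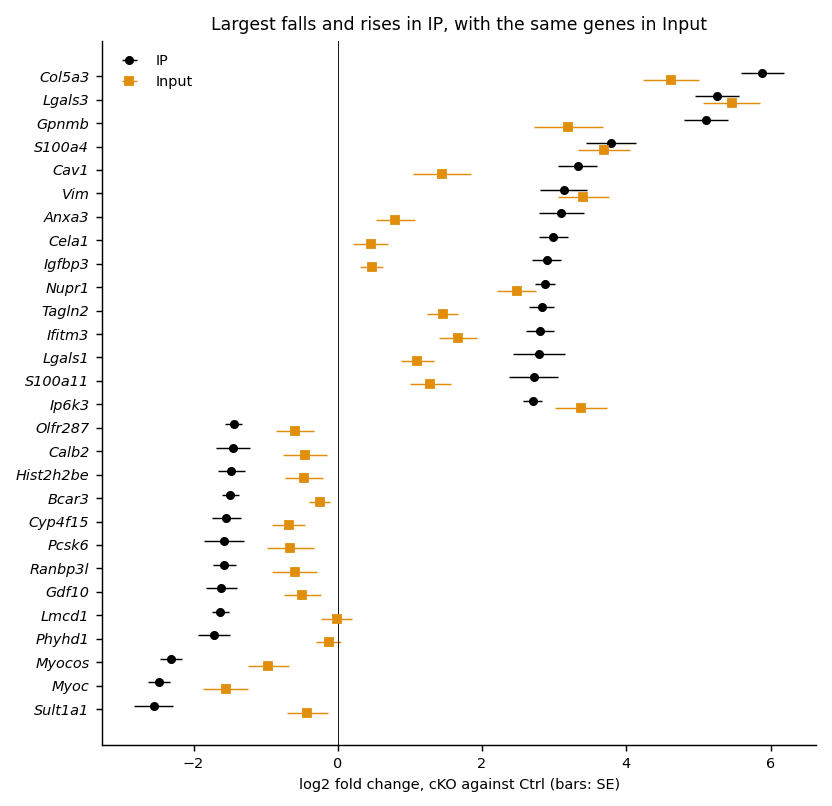
Log2 fold change of cKO against Ctrl with its SE for 13 of the 15 largest falls and the 15 largest rises in IP (black circles) and the same genes in Input (orange squares). Vim, Lgals3 and Ip6k3 lie at similar values in both fractions, while Lmcd1, at −1.63 in IP, lies near 0 in Input.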

How the data were processed

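IP and Input RNA of 12 TRAP-Seq libraries (3 mice per genotype, 2 libraries per mouse) was taken from a table of raw gene counts deposited by the authors, who aligned reads with STAR in Galaxy to MM10. The submitters' processing notes name STAR and edgeR without versions. The counting tool, its strand setting and the annotation are not given in the sources used here. The counts were used as deposited. The bulk cortex files were not used here. Groups followed the GEO labels, and no column of per-sample values was left unmapped.

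Each fraction was filtered with filterByExpr (at least 10 counts in enough libraries, 15 in all), scaled by TMM and fitted with edgeR 4.0.16 in R 4.3.3 by glmQLFit and glmQLFTest on the 2 groups of that fraction. The SE is the log2 fold change divided by the square root of F. All p-values are two-sided and adjusted by Benjamini–Hochberg over all genes tested. An exact permutation test of 3 against 3 mice cannot go under 0.1 and was not used. The interaction was fitted on all 12 libraries. IP and Input of 1 number come from 1 mouse, so that the mouse block was also fitted. Between genotypes, libraries with the same number come from different mice, and the labels give no litter or day for them. The fits were tested on simulated data.

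Length and GC trends were removed with lowess curves (span 0.3) of each library's log2 CPM against exonic length and GC content, entered as offsets, an alternative chosen after seeing the data. The others were RLE factors, library size alone, other filters, DESeq2 1.42.0, a likelihood ratio test, an exact test, all libraries in one fit, ribosomal protein genes left out, a log2 fold change beyond 1, a replicate block and leaving out each library. Symbols and positions came from GENCODE vM21 on GRCm38, the build named MM10 by UCSC, for 53237 of 53342 gene IDs. Start sites and the 250 bases before them came from RefSeq on GRCm38.p6.

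The genes and lists were chosen with earlier results of these data known. By rule, the text names the 15 largest falls and rises with a mean log2 CPM of at least 3, no overlap and a proper symbol, the 15 most abundant called genes beyond 0.5 in each direction, up to 5 members of each function list by p with up to 2 that moved against it, and up to 2 abundant markers of each cell type. Not every such gene is named, and the target gene of the knockout and some other genes are not reported here.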

Additional observations from a re-analysis of the deposited data

Results flagged for a closer look

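For 15 genes, 13 of them given here, the genotype effect differed between IP and Input by the interaction test (values are the IP effect minus the Input effect on the log2 scale). It was lower in IP for A830008E24Rik (−2.25, SE 0.35), Lmcd1 (−1.61, SE 0.23) and Bcar3 (−1.25, SE 0.18). It was higher in IP for Srxn1 (1.00, SE 0.16), Cdo1 (1.28, SE 0.19), Ccnd1 (1.37, SE 0.22), Olfm2 (1.43, SE 0.23), Cdkn1a (1.57, SE 0.23), Hpgd (1.79, SE 0.26), Layn (1.85, SE 0.30), Igfbp3 (2.42, SE 0.27), Cela1 (2.53, SE 0.32) and Clcf1 (2.98, SE 0.48). Adjusted p ran from 0.00504 for Igfbp3 to 0.0484 for Layn by edgeR's quasi-likelihood test. IP and Input of 1 number came from 1 mouse, and with the mouse as a block only Igfbp3 (adjusted p = 0.0241) and Cela1 (0.0252) of the 13 passed, while the other 11 had adjusted p from 0.0657 to 0.156 in the same test. Groups of 3 mice were too small for a test of single outlying libraries.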

How the results depend on the processing

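The number of IP genes called, 4782, was within 1.5 times under most settings. It fell to 1684 (920 up, 764 down) with all 12 libraries in one fit, and to 679 (456 up, 223 down) beyond a log2 fold change of 1. The downregulated count rose to 3529 with library size alone and to 3160 with the replicate block. In the labels the libraries of the 2 genotypes share only a number (correlations of their deviations 0.10, 0.04 and 0.12, each above those with other numbers). With that block the IP calls numbered 6735. Ctrl mice were littermates, but whether mice with the same number came from 1 litter or 1 day is not stated. Leaving out 1 library gave between 2633 and 4810 IP calls, 1827 to 2849 up and 806 to 2100 down, lowest without cKO replicate 2. In Input, where 26 genes were called, the number was 112 with no filter beyond 1 count, 15 with at least 10 counts in every library, 127 by DESeq2, 137 by the likelihood ratio test, 136 by the exact test, 127 with all 12 libraries in one fit, 8 with the replicate block, and 4 to 112 leaving out 1 library. For the interaction, with 15 calls, it was 189 with no filter, 284 by DESeq2, 219 by the likelihood ratio test, 6 with the mouse as a replicate block, 71 with length and GC trends removed, and 3 to 432 leaving out 1 library. The causes were not tested. Of 168 called genes named in the text, all kept the call under RLE factors, the likelihood ratio test, the replicate block and the exact test, 167 with no filter, 163 with length and GC trends removed, 161 by DESeq2, 158 with library size alone, 111 with all 12 libraries in one fit, and 132 to 156 without 1 library. With at least 10 counts in every library 161 were tested and with ribosomal protein genes left out 163, and all kept the call. No named gene turned its direction. Depth limits genes near 0.115 CPM.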

Other observations

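Several genes called in Input but not described above were called in IP as well. Cd9, a tetraspanin, had a log2 fold change of 1.46 in Input and 1.85 in IP. S100a6, a calcium-binding protein, had 1.83 in Input and 2.52 in IP. Igfbp2, a binding protein of insulin-like growth factors, had 1.74 and 1.52, and Tmem176a had 1.67 and 1.36. The adjusted p of the 4 genes lay between 0.0279 and 0.0441 in Input and between 0.000262 and 0.00121 in IP by edgeR. The chemokine gene Ccl19 was called in Input (2.60, adjusted p = 0.0441) and had 0.40 in IP (adjusted p = 0.692). They were picked after their values were seen.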
